A study of Sus scrofa with 12 samples.

Results

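The insulin-like growth factor (IGF) genes and the genes of their binding proteins were examined in stented coronary arteries of pigs. The rule took every probe set (a group of short probes on the array that is read as 1 value) whose only gene symbol was IGF1, IGF2, IGFBP2, IGFBP3, IGFBP4, IGFBP5, IGFBP6 or IGFBP7. Of these 8 genes, 5 had a probe set, which makes 5 of the 6765 genes that the array's annotation names by a single symbol. They were read by 20 of 24123 probe sets: 3 for IGF1, 13 for IGF2, 1 each for IGFBP2 and IGFBP5, and 2 for IGFBP6. No probe set carried the symbol of IGFBP3, IGFBP4 or IGFBP7 alone, so these 3 genes were not analysed here. A filter that removed the 30% of probe sets with the lowest mean left 17 of the 20 for testing. The 3 removed all belong to IGF2, and no gene was lost by the filter.

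The samples were coronary artery segments around stents in Yorkshire farm pigs, collected 28 days after angioplasty and implantation. Stents were of bare metal (BMS), or they released sirolimus (SES, sirolimus-eluting stent) or zotarolimus (ZES, zotarolimus-eluting stent). Each of the 3 groups had 4 segments from 2 pigs, so 12 arrays came from 6 pigs. All segments carried a stent, so no comparison includes an unstented artery. The sources used here give neither the pigs' age nor the drug doses, and the title of the series mentions overlapping stents. Sirolimus inhibits the kinase mTOR, which lies downstream of the IGF receptor, and zotarolimus is its analog with a tetrazole in the place of 1 hydroxyl group. Segments are called by stent and number (BMS 1 to BMS 4), and numbers 1 and 2 share a pig, as do 3 and 4. Each pig gave a right coronary artery (RCA) and a left anterior descending artery (LAD), apart from the pig of SES 1 and SES 2, which gave a left circumflex artery and an RCA.

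IGF1 and IGF2 are secreted peptides that bind the IGF1 receptor, a tyrosine kinase that signals through IRS proteins, PI3K, AKT and mTOR. The binding proteins hold most of the IGF outside cells, lengthen its life and limit or aid its access to the receptor, and proteases such as PAPP-A release it by cutting them. In arteries IGF1 is known as a growth and survival factor for smooth muscle cells, and IGF2 is known mainly as a fetal growth factor.

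Values are log2 signals, so a step of 1 is a doubling. Each array's background level was the 95th percentile of its 59 controls whose target sequence was not spiked in, and it ranged from 4.15 to 5.96. As a check of the tissue, 11 of 13 measured smooth muscle contractile markers and 10 of 12 fibroblast markers were above background on all 12 arrays. The mean of the 13 smooth muscle markers was 9.57, 9.46 and 9.82 on SES 1, SES 2 and SES 3 and 10.03 on ZES 1, against 11.78 to 12.73 on the other 8 arrays. Their summed log2 signals ran from 153 to 165 with BMS, from 123 to 154 with SES and from 130 to 165 with ZES, and none was listed at 0 on any array. A whole segment was measured, so fewer cells of a type and less RNA per cell cannot be told apart. Arrays BMS 1 and ZES 2 stood apart in the control for 28S ribosomal RNA, at 14.57 and 14.10 against 6.95 to 10.74 on the others. Values without both are given beside some of the results, and results without such values also moved. Hybridisation controls spiked into every sample had a mean of 16.30 ± 0.38 in BMS, 15.09 ± 0.43 in SES and 15.30 ± 0.58 in ZES segments (SD, n = 4). The 3′ minus 5′ signal of GAPDH, a measure of RNA integrity and labelling, was 4.16 ± 0.50, 2.71 ± 0.35 and 3.66 ± 0.19. Both controls had lower means with SES than with BMS, by -1.21 and -1.45. The 3′ minus 5′ signal of GAPDH was 0.95 higher in mean with ZES than with SES, and the background level differed by -0.79 between ZES and BMS. Each of these 4 differences had p = 0.0286 in a two-sided exact permutation test, where 70 arrangements permit no smaller value, and missed the threshold after adjustment over 9 tests (0.0644). That test shuffled single segments and did not keep the segments of a pig together, so its p-values do not measure the spread between pigs. With the spike-in level or the GAPDH difference as a covariate, 0 members were called in the pairwise stent comparisons. Over all 16799 tested probe sets, either covariate also left 0 calls for SES minus BMS, against 114 in the fit without a covariate. ZES minus BMS had 0 calls under both, and ZES minus SES had 5 (spike-in) and 0 (GAPDH). The 0 for members therefore does not set them apart from other probe sets.

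IGF1 was well above background on all 12 arrays and showed no called difference between stents. Its leading probe set, Ssc.16231.1.S1_a_at (the one of highest mean for the gene), read 11.46, 10.93, 10.93 and 10.09 on BMS 1 to BMS 4. The same probe set gave 11.30, 10.12, 9.85 and 10.99 on SES 1 to SES 4, and 8.55, 11.46, 9.72 and 9.96 on ZES 1 to ZES 4. The 3 groups overlapped, and ZES held both the lowest and the highest array, which are the 2 segments of 1 pig. Group means were 10.85 ± 0.56 with BMS, 10.57 ± 0.69 with SES and 9.92 ± 1.20 with ZES (SD, n = 4). In limma, adjusted over all 16799 probe sets tested, the ZES minus BMS difference was -0.93 ± 0.50 (SE; 95% interval -1.98 to 0.12; adjusted p = 0.608). The SES minus BMS difference was -0.29 ± 0.50 (adjusted p = 0.831), and the ZES minus SES difference was -0.64 ± 0.50 (interval -1.69 to 0.40, adjusted p = 0.722). Neither pair of neighbours in the order BMS, SES, ZES differed beyond the spread.

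The other IGF1 probe sets followed the leading one across arrays. Ssc.16231.2.A1_a_at read 10.60, 10.11, 11.09 and 7.75 with BMS, 10.89, 9.68, 9.09 and 10.69 with SES, and 7.86, 11.38, 9.26 and 9.79 with ZES. Ssc.16231.3.S1_a_at read 9.97, 10.00, 10.67 and 8.02 with BMS, 10.47, 8.92, 8.86 and 10.50 with SES, and 7.28, 10.91, 8.75 and 8.86 with ZES. On both, BMS 4 and ZES 1 were the lowest arrays and ZES 2 the highest. The 3 pairs of IGF1 probe sets correlated at r = 0.86 to 0.96 over the 12 arrays, and since they read 1 gene from 1 RNA sample they are not independent. All 3 were lower with ZES than with BMS in the fit, by -0.93, -0.32 and -0.72, while for SES minus BMS the signs were mixed. Without BMS 1 and ZES 2, the leading probe set differed by -1.24 ± 0.47 between ZES and BMS (adjusted p = 0.541) and by -1.15 ± 0.44 between ZES and SES (adjusted p = 0.548), and neither passed.

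IGF2 had lower mean signals with SES than with BMS on all 10 of its tested probe sets, though none passed the test. The leading probe set, Ssc.9365.6.A1_a_at, read 10.27, 8.17, 9.02 and 7.88 with BMS, 7.93, 7.51, 6.52 and 8.05 with SES, and 7.07, 10.26, 7.71 and 7.75 with ZES. BMS 1 and ZES 2 were the 2 highest arrays, SES 3 was the lowest, and the groups overlapped. Means were 8.83 ± 1.07, 7.50 ± 0.70 and 8.20 ± 1.41 (SD, n = 4), and the SES minus BMS difference was -1.33 ± 0.65 (SE, interval -2.70 to 0.039, limma adjusted p = 0.363). The order of the means was BMS, ZES, SES, and the steps from BMS to ZES (-0.64 ± 0.65, adjusted p = 0.811) and from SES to ZES (0.70 ± 0.65, adjusted p = 0.788) were no larger than about their standard errors.

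**Figure D1:**
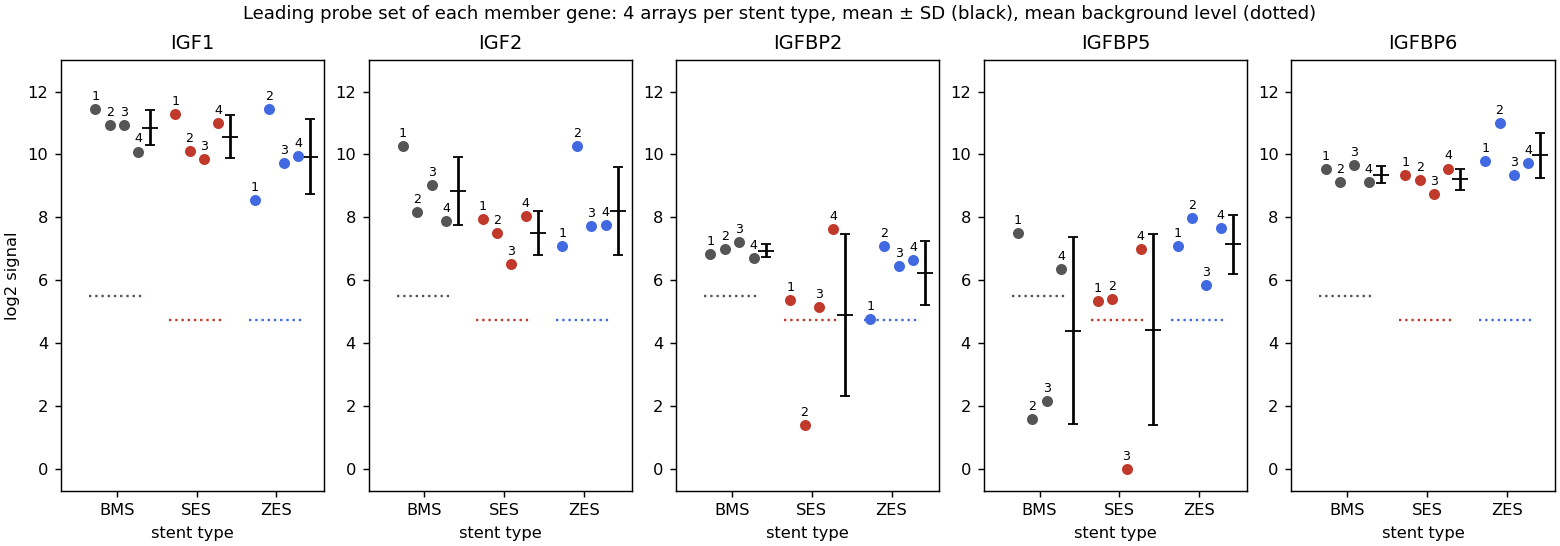
Log2 signal (vertical axis) of the leading probe set of each gene on the 4 arrays of each stent type (horizontal axis), with array numbers, the mean ± SD in black and each group's mean background level as a dotted line. ZES 2 is the highest array for IGF1, IGFBP5 and IGFBP6, and IGFBP5 spreads from 0 to 7.99.

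Of the other IGF2 probe sets, Ssc.9365.2.S1_a_at showed the smallest p. It read 10.48, 9.01, 8.59 and 8.23 with BMS, and 7.88, 6.49, 5.85 and 7.30 with SES, so every BMS segment lay above every SES segment. With ZES it read 5.50, 11.01, 7.42 and 7.64, which spans both other groups. The SES minus BMS difference was -2.20 ± 0.85 (4.60-fold lower with SES; limma adjusted p = 0.230). Ssc.9365.6.S1_x_at also separated BMS from SES, at 8.95, 7.24, 7.30 and 7.27 against 5.75, 5.93, 4.64 and 6.58, while ZES read 4.94, 9.18, 6.42 and 3.69. Its SES minus BMS difference was -1.96 ± 0.91 (adjusted p = 0.335). Such a separation in either direction was met by 8.74% of all tested probe sets for SES against BMS, and 2 of 17 members had it. No member separated ZES from BMS (3.82% of all) or ZES from SES (6.00% of all).

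The remaining 7 tested IGF2 probe sets differed by -0.41 to -2.35 between SES and BMS, with adjusted p from 0.355 to 0.895. They are Ssc.9365.7.A1_x_at, Ssc.9365.5.S1_a_at, Ssc.9365.3.S1_a_at, Ssc.20525.1.S1_at, Ssc.9365.6.A1_x_at, Ssc.9365.3.S1_x_at and Ssc.9365.4.S1_a_at. In the manufacturer's naming, the ending _x_at marks probe sets with probes that may also match other sequences, so the values of 4 of the 10 can hold signal from elsewhere. The 45 pairs among the 10 correlated at a median r of 0.70 (range 0.43 to 0.94) over the 12 arrays, so they are partly the same measurement. Ssc.9365.4.S1_a_at read 6.08, 5.99, 4.59 and 7.42 with BMS, 6.57, 2.55, 2.45 and 3.09 with SES, and 2.54, 10.86, 5.50 and 7.56 with ZES. It was above background on 3 BMS arrays, 1 SES array and 3 ZES arrays, and its ZES minus SES difference was 2.95 ± 1.36 (adjusted p = 0.483). Without ZES 2 alone this difference was 1.49, and without BMS 1 and ZES 2 it was 1.54. Ssc.9365.3.S1_x_at had the only unadjusted p under 0.05 for ZES minus BMS, at -2.48 ± 1.10 (adjusted p = 0.526), and at -3.20 without BMS 1 and ZES 2. The 3 probe sets removed by the filter, Ssc.9365.1.S1_at, Ssc.9365.5.S1_at and Ssc.9365.5.A1_at, were above background on 2, 1 and 3 of the 12 arrays. Their means with SES were 2.09, 3.31 and 3.78, against 4.60, 2.72 and 1.68 with BMS, so only the first was lower with SES.

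The IGF2 signal was highest on 2 arrays of different stents. On 9 of the 10 tested IGF2 probe sets, BMS 1 and ZES 2 were the 2 highest of the 12 arrays, a pattern found in 4.14% of all tested probe sets. ZES 2 was the highest array for 7 IGF2 probe sets and BMS 1 for the other 3. With each of the 10 centred on its own mean, the average was 2.16 on BMS 1 and 2.95 on ZES 2, and all 10 lay above their own mean on both. The other BMS arrays averaged 0.32, 0.29 and 0.097, and the other ZES arrays -1.60, -0.79 and -0.42. SES 1 to SES 4 averaged -0.045, -0.99, -1.59 and -0.40. SES 2, SES 3 and ZES 1, where all 10 lay below their own mean, are also among the 4 arrays of low smooth muscle marker signal. The mean of the 12 fibroblast markers was also lowest on SES 2, SES 3 and ZES 1, at 10.36, 10.24 and 10.11 against 10.51 to 11.12 on the other arrays. Across the 12 arrays the leading IGF2 probe set correlated at r = 0.65 with the mean of the smooth muscle markers, and the IGF1 one at r = 0.40. Means of the other cell type lists were not compared in this way, so these values do not single out smooth muscle. The part of 28S signal, or of smooth muscle or fibroblast content, in these values was not tested.

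**Figure D2:**
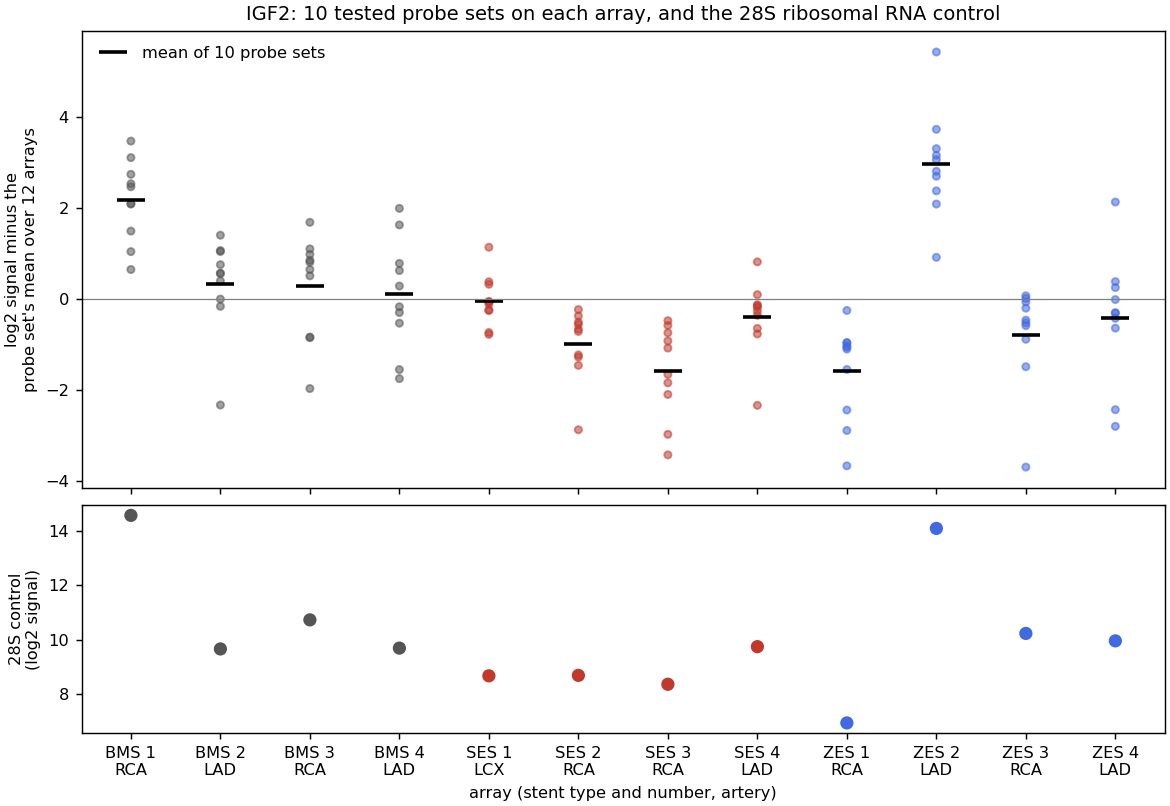
Upper panel: log2 signal of the 10 tested IGF2 probe sets minus each one's mean over 12 arrays (points) and their mean (bars), by array and artery. Lower panel: log2 signal of the 28S ribosomal RNA control on the same arrays, which is highest on BMS 1 (14.57) and ZES 2 (14.10), the same arrays on which IGF2 averages 2.16 and 2.95.

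Without these 2 arrays, 9 of 10 IGF2 probe sets still had a lower mean with SES than with BMS, and 9 of 10 a lower mean with ZES than with BMS. The leading probe set then averaged 8.36 ± 0.60 with BMS (SD, 3 arrays), 7.50 ± 0.70 with SES and 7.51 ± 0.38 with ZES (3 arrays). Its SES minus BMS difference was -0.86 ± 0.51 (limma adjusted p = 0.544). For Ssc.9365.2.S1_a_at the SES minus BMS difference was -1.73 ± 0.64 (adjusted p = 0.286), and its ZES minus SES difference moved from 1.02 ± 0.85 to -0.020 ± 0.64. Leaving out ZES 2 alone moved it to -0.043. Without both arrays, Ssc.9365.6.A1_x_at moved from -0.41 to 0.64 for SES minus BMS. Ssc.9365.4.S1_a_at moved from 0.59 to -0.80 for ZES minus BMS.

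IGFBP2, a binding protein with a preference for IGF2, read 6.83, 6.98, 7.20 and 6.71 with BMS, 5.36, 1.40, 5.15 and 7.63 with SES, and 4.76, 7.09, 6.46 and 6.63 with ZES. BMS segments lay within 0.49 of each other, while SES segments ran from the lowest to the highest value of all 12, and SES 2 was below background. The means were 6.93 ± 0.21, 4.89 ± 2.58 and 6.23 ± 1.02 (SD, n = 4). The SES minus BMS difference was -2.04 ± 0.98 (SE, limma adjusted p = 0.353) and the ZES minus SES difference 1.35 ± 0.98 (adjusted p = 0.702). Without SES 2 alone the IGFBP2 difference between SES and BMS was -0.86. Without the pig of SES 1 and SES 2 it was -0.54, and the IGFBP2 difference between ZES and SES was -0.16. With 32 added to the linear signal before log2, which compresses values near background, the SES minus BMS difference was -0.96.

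IGFBP5, a binding protein that also binds extracellular matrix, read 7.51, 1.57, 2.17 and 6.34 with BMS, 5.33, 5.38, 0 and 6.98 with SES, and 7.07, 7.99, 5.86 and 7.66 with ZES. It was above background on all 4 ZES arrays, 3 SES arrays and 2 BMS arrays. SES 3 is listed at 0. The ZES minus BMS difference was 2.75 ± 1.41 (interval -0.23 to 5.72, limma adjusted p = 0.595) and the ZES minus SES difference 2.72 ± 1.41 (interval -0.25 to 5.70, adjusted p = 0.539), so neither passed. With 32 added in the same way, the IGFBP5 difference between ZES and BMS was 1.25 ± 0.58 (adjusted p = 0.512). Without BMS 1 and ZES 2 the IGFBP5 difference between ZES and BMS was 3.50 ± 1.64 (limma adjusted p = 0.601). That between SES and BMS moved from 0.025 to 1.06 ± 1.53.

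IGFBP6, which binds IGF2 far more tightly than IGF1, had the narrowest range of the 5 leading probe sets, 2.26 over the 12 arrays. Ssc.14062.2.S1_a_at read 9.54, 9.12, 9.66 and 9.11 with BMS, 9.33, 9.18, 8.75 and 9.55 with SES, and 9.77, 11.01, 9.36 and 9.72 with ZES. ZES 3 lay inside the range of the BMS and SES arrays, ZES 1 and ZES 4 just above it, and ZES 2 well above it. Means were 9.36 ± 0.28, 9.20 ± 0.34 and 9.97 ± 0.72, with a ZES minus SES difference of 0.76 ± 0.37 (limma adjusted p = 0.508) and a ZES minus BMS difference of 0.61 ± 0.37 (adjusted p = 0.651). Without BMS 1 and ZES 2 the IGFBP6 mean with ZES was 9.62 ± 0.23 and the ZES minus BMS difference 0.32 ± 0.37 (adjusted p = 0.845), while the ZES minus SES difference was 0.42. The other probe set, Ssc.14062.1.S1_at, read 7.45, 7.49, 7.83 and 5.95 with BMS, 6.98, 6.25, 7.28 and 7.74 with SES, and 5.65, 9.41, 7.12 and 7.30 with ZES, and it correlated with the first at r = 0.62.

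Counted over all members, no probe set passed an adjusted p of 0.05 in any comparison. For SES minus BMS, 0 of 17 members were called where 114 of 16799 probe sets were (0.679%). At an unadjusted p under 0.05 there were 2 members, or 2 of 17, against 14.3% of all probe sets. For ZES minus BMS, 0 members and 0 of all (0%) were called, with 1 member against 8.99% at the unadjusted threshold. For ZES minus SES, 0 members were called against 0.0714% of all, with 1 member against 10.0% unadjusted. The F test over the 3 stents called 0 members against 0.345% of all, and 0 members were under 0.05 unadjusted against 13.4% of all. The smallest adjusted p of a member was 0.230, 0.526, 0.483 and 0.390 in these comparisons, in each case on an IGF2 probe set. In these stent comparisons the members' share lay at or below the background at each threshold.

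The direction of the members' values was uneven. For SES minus BMS, 14 of 17 members were negative with a median of -0.71, beside a median of -0.020 and 51.2% negative over all probe sets. For ZES minus BMS, 11 were negative (median -0.55, all probe sets -0.014), and for ZES minus SES 13 were positive (median 0.60, all probe sets -0.022). The last count turned on ZES 2: without that array 5 of 17 were positive for ZES minus SES (median -0.13). Without both BMS 1 and ZES 2 it was also 5 of 17 (median -0.12), and 8 of 10 IGF2 probe sets were then lower with ZES than with SES. Without both arrays 13 of 17 were negative for SES minus BMS (median -0.30) and 14 of 17 for ZES minus BMS (median -0.80). These comparisons share control arrays, and 10 of the 17 read 1 gene, IGF2, so the counts are not independent. The order of group means was BMS, ZES, SES from high to low for 6 of 10 IGF2 probe sets and for IGFBP2, and ZES, BMS, SES for 3 of IGF2 and both of IGFBP6. IGF1 alone among the 5 genes had ZES lowest on all of its probe sets.

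**Figure D3:**
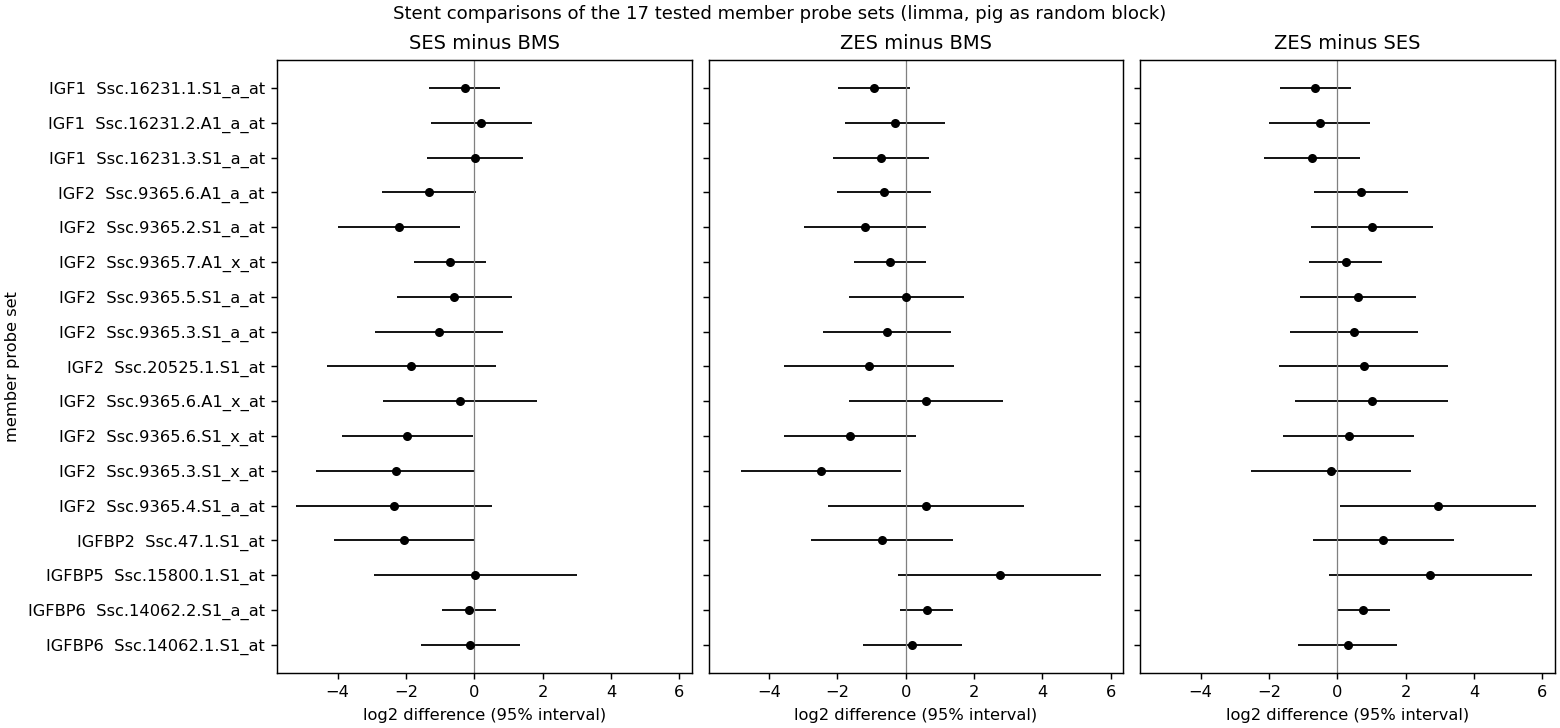
Log2 difference (horizontal axis) with 95% interval for the 17 tested probe sets (vertical axis) in the 3 stent comparisons, from limma with the pig as a random block. All 10 IGF2 points lie left of 0 for SES minus BMS, and no probe set passed the adjusted threshold.

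On the leading probe sets, the 2 segments of a pig lay further apart than the mean levels of the 2 pigs of a stent type. For the leading IGF1 probe set the mean absolute gap within a pig was 1.14, and the mean gap between the pig means of a stent type was 0.38. The same values were 1.41 and 0.72 for IGF2, 1.60 and 1.22 for IGFBP2, 3.31 and 0.97 for IGFBP5, and 0.59 and 0.34 for IGFBP6. The widest gap of IGF1 was 2.91, in the pig of ZES 1 and ZES 2. A pig mean averages 2 segments, so a smaller gap between pig means is built into this comparison in part.

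The arteries were compared within the 5 pigs that gave both a LAD and an RCA segment. Members were mostly higher in the LAD, at 16 of 17 positive with a median of 0.46 beside 0.051 over all probe sets, but 0 were called where 0 of all (0%) were. This direction rested on the pig of ZES 1 and ZES 2, without which 6 of 17 were positive (median -0.30) and 8 of 10 IGF2 probe sets were lower in the LAD. At an unadjusted p under 0.05 there were 2 of 17 members, a larger share than the 6.86% of all. Both are IGF2: Ssc.20525.1.S1_at differed by 2.64 ± 0.77 (SE, limma adjusted p = 0.721) and was higher in the LAD in 4 of 5 pigs, and Ssc.9365.4.S1_a_at by 2.75 ± 1.08 (adjusted p = 0.722), also in 4 of 5. Some RCA values of both were below background. Ssc.20525.1.S1_at read 3.14 on SES 3 and 2.87 on ZES 3. Ssc.9365.4.S1_a_at read 4.59 on BMS 3, 2.45 on SES 3 and 2.54 on ZES 1, and it differed by 1.36 without the pig of ZES 1 and ZES 2. The leading IGF2 probe set differed by only 0.30 ± 0.66 (adjusted p = 0.942) and that of IGF1 by 0.58 ± 0.47 (adjusted p = 0.805). The direction depended on the pig: IGF1 was lower in the LAD by -0.52 and -0.84 in the BMS pigs, and higher by 1.13 in the SES pig and by 2.91 and 0.23 in the ZES pigs. For the leading IGF2 probe set the same gaps were -2.10, -1.15, 1.53, 3.19 and 0.041. BMS 1 is an RCA segment and ZES 2 a LAD segment, so the arrays of high 28S signal lie on opposite sides of this comparison. Without the pig of ZES 1 and ZES 2, the LAD minus RCA difference of IGF2 Ssc.9365.2.S1_a_at moved from 1.07 to -0.039.

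**Figure D4:**
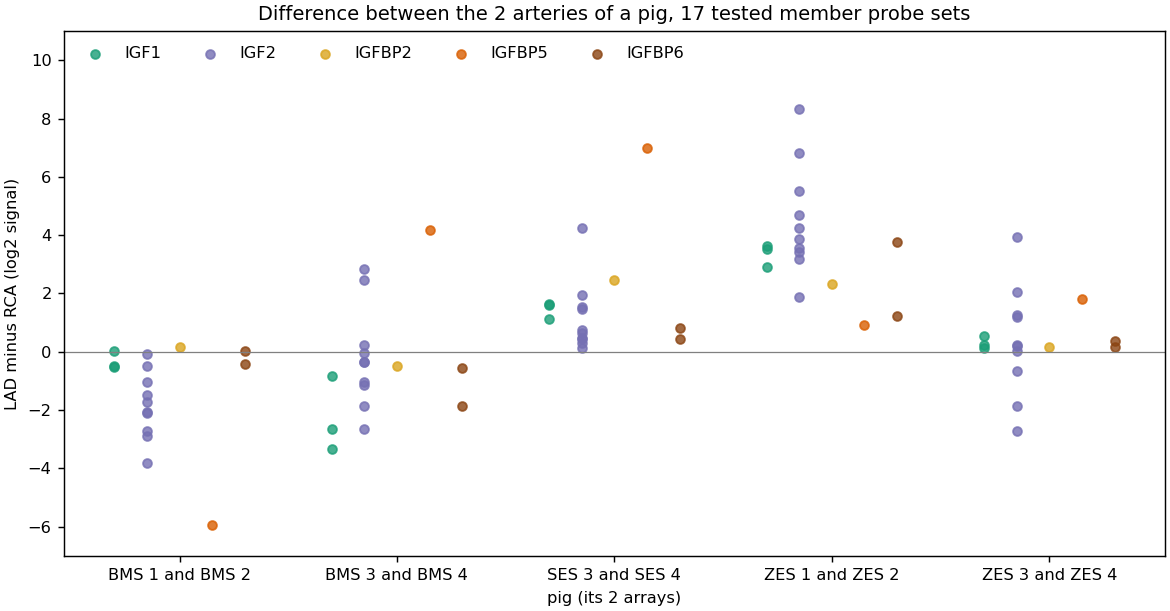
LAD minus RCA log2 signal (vertical axis) of the 17 tested probe sets in each of 5 pigs (horizontal axis), coloured by gene. IGF1 and IGF2 points lie mostly below 0 in the pig of BMS 1 and BMS 2 and all above 0 in the pig of ZES 1 and ZES 2.

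Genes that act with the IGFs were given by fixed lists, and none of their measured members was called in any comparison. Receptors were dim. IGF1R, the signalling receptor, had means of 5.77 ± 1.06 (BMS), 5.32 ± 0.90 (SES) and 4.22 ± 1.23 (ZES; SD, n = 4) and was above background on 7 of 12 arrays. Its ZES minus BMS difference was -1.55 ± 0.86 (limma adjusted p = 0.618). IGF2R, which takes IGF2 up for breakdown, averaged 5.15 ± 1.76, 3.69 ± 1.67 and 4.32 ± 1.97 and was above background on 5 arrays (SES minus BMS -1.46 ± 1.20, adjusted p = 0.610). The insulin receptor gene INSR and the adaptor gene IRS1 were removed by the filter.

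Of 22 listed partners and proteases of the binding proteins, 13 were tested, with 9 negative and 4 positive for SES minus BMS (median -0.47, all genes -0.0064). The smallest adjusted p-values in the list were of ADAM28, a metalloprotease, at -2.55 ± 0.62 (adjusted p = 0.0670), VTN, the matrix protein vitronectin, at -3.85 ± 0.96 (adjusted p = 0.0722), HTRA1, a secreted serine protease, at -1.11 ± 0.29 (adjusted p = 0.0867), and PLAT, tissue plasminogen activator, at 2.13 ± 0.57 (adjusted p = 0.0906). HTRA1 had means of 13.03 ± 0.066 (BMS), 11.92 ± 0.64 (SES) and 12.72 ± 0.30 (ZES). For ZES minus SES the smallest was that of CTSD, the lysosomal protease cathepsin D, at 1.89 ± 0.45 (adjusted p = 0.122). PAPPA, the gene of the protease PAPP-A, averaged 5.56 ± 0.90, 5.19 ± 0.80 and 3.57 ± 2.28, with a ZES minus BMS difference of -1.99 ± 1.05 (adjusted p = 0.606). It read 2.21 and 1.17 on ZES 3 and ZES 4, which share a pig and were below background, against 4.75 and 6.14 on ZES 1 and ZES 2.

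Of 49 listed genes of IGF signalling through PI3K, AKT and mTOR, 19 were tested, with 10 positive and 9 negative for SES minus BMS (median 0.021). The smallest adjusted p-values were of BAD, a promoter of apoptosis that AKT phosphorylates (-1.34 ± 0.51, limma adjusted p = 0.222), RPS6, the ribosomal protein S6 (-0.66 ± 0.27, 0.263), and FKBP1A, the protein through which sirolimus binds mTOR (0.63 ± 0.27, 0.291). For ZES minus SES the smallest was of EIF4EBP2, a translation repressor under mTOR (1.20 ± 0.37, adjusted p = 0.241). In the list of the growth hormone axis and regulators of IGF genes, 7 of 17 were tested, and HIF1A, a transcription factor of the hypoxia response, had the smallest adjusted p for SES minus BMS (0.70 ± 0.29, 0.275). For ZES minus SES it was JAK2, the kinase of the growth hormone receptor (-1.11 ± 0.45, 0.401).

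The genes most like each member were found by the Pearson correlation of leading probe sets over the 12 arrays, among 5788 other genes. As the best of so many over 12 arrays that share library differences, these values are descriptions. For IGF1 they were DCN (r = 0.94), LUM (0.90), both small proteoglycans of connective tissue, and MMP2 (0.90), a matrix metalloprotease. DCN read 13.58, 13.03, 12.74 and 12.67 with BMS, 13.20, 12.03, 11.60 and 12.93 with SES, and 10.59, 14.29, 11.98 and 12.45 with ZES, so it was lowest on ZES 1 and highest on ZES 2, as IGF1 was. Other fibroblast markers ranged widely against IGF1, from CD34 at 0.86 and FBLN1 at 0.65 to THY1 at -0.32 and POSTN at -0.43. For IGF2 the 3 genes were MYOC (0.90), RNASEH2C (0.88) and DDX19A (0.88), and MYOC read 9.01 on BMS 1 and 8.15 on ZES 2 against 3.46 to 5.79 on the other arrays. For IGFBP2 they were SAG (0.95), GAMT (0.93) and PEAR1 (0.91), for IGFBP5 C9H1orf27 (0.84), ZFYVE27 (0.83) and HNRNPU (0.81), and for IGFBP6 ABHD14A (0.92), TCN2 (0.88) and HSD17B8 (0.86). SES 2 was the lowest array for IGFBP2 (1.40) and for SAG (1.06), GAMT (3.10) and PEAR1 (4.97). IGFBP5 and C9H1orf27 were both listed at 0 on SES 3. How far these correlations rest on single arrays was not tested. Between members, the leading probe sets of IGF1 and IGF2 correlated at r = 0.75, those of IGF2 and IGFBP6 at 0.66, and those of IGF1 and IGFBP5 at 0.015.

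**Figure D5:**
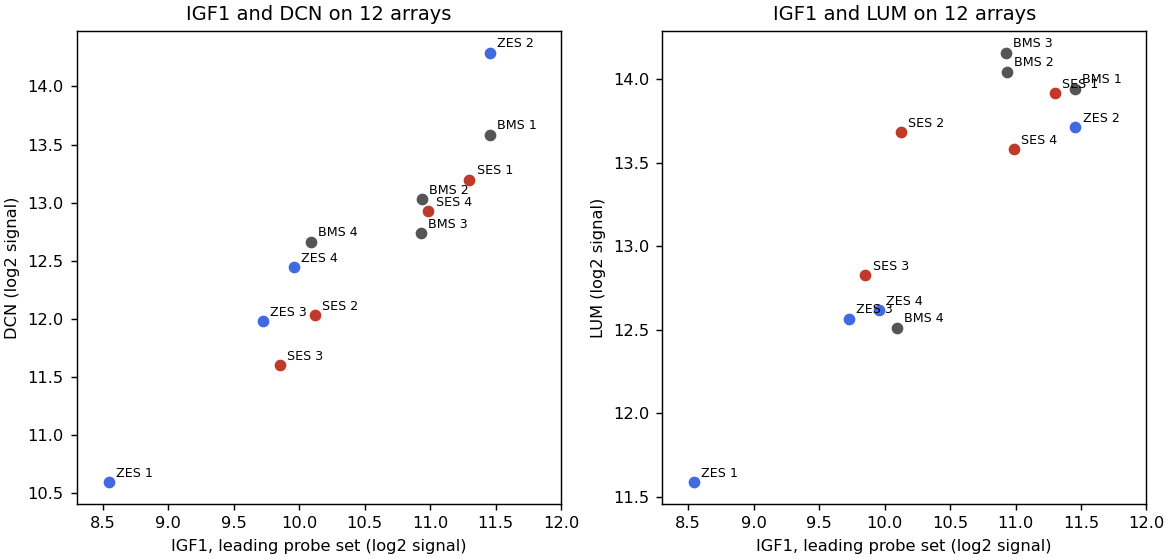
Log2 signal of the leading IGF1 probe set (horizontal axis) against DCN and LUM (vertical axes) on the 12 arrays, coloured by stent type. The lowest point in both panels is ZES 1, where IGF1 read 8.55 and DCN 10.59.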

How the data were processed

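Total RNA of 12 segments was hybridised to a porcine Affymetrix array. The authors deposited log2 signals. Per the submitters' processing notes, these came from Affymetrix Expression Console 5.0 with MAS5. The base of the logarithm was read from the values, whose antilog has the same trimmed mean on all arrays (500.15 to 500.17, 2% left out at each end). The treatment of low signals is not given in the sources used here, and 41 to 1153 probe sets per array are listed at 0. No further normalization or pseudocount was applied. Of the probe sets that are not controls, 10069 had 1 symbol, 198 several and 13732 none. After 124 control probe sets and the 30% of lowest mean (log2 under 4.30) were left out, 16799 were tested.

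Stent types were tested in limma 3.58.1 (R 4.3.3, with statmod 1.5.0): stent type as fixed term, all 12 arrays in one fit, pig as random block (consensus correlation -0.0322), eBayes with a variance trend, two-sided, Benjamini-Hochberg over all 16799, threshold 0.05. LAD and RCA were compared with pig as a fixed block. Segments of a pig are not separate animals, so p-values measure the spread between segments from 2 pigs per stent type. The number of arrays limits the precision. Named were all members with every probe set, IGF1R, IGF2R, INSR, PAPPA and IRS1, up to 4 genes of smallest adjusted p per pathway list and comparison, and the 3 genes most like each member; a further gene of this rule is not reported here. A gene is led by its probe set of highest mean. The members, lists and alternatives were chosen with earlier results of these data known. Alternatives were other filters, scalings, blocks, weights, covariates, thresholds and left-out arrays and pigs.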

Additional observations from a re-analysis of the deposited data

Results flagged for a closer look

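In 2 of 51 groups of 4 segments (17 probe sets, 3 stent types) 1 segment lay apart by Dixon's test at 95%, and chance flags about 1 in 20 groups. IGF2 Ssc.9365.6.S1_x_at read 8.95 on BMS 1 against 7.24, 7.27 and 7.30 on the other BMS segments, and BMS 1 is 1 of the 2 arrays of high 28S signal. IGF2 Ssc.9365.4.S1_a_at read 6.57 on SES 1 against 2.45, 2.55 and 3.09 on the other SES segments, which were all below background.

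For 8 of 17 members (47.1%), both BMS pigs had a lower signal in the LAD than in the RCA and both ZES pigs a higher one. Over all 16799 probe sets, the BMS and ZES pigs went opposite ways in 17.4%. These 8 members read IGF1, IGF2 and IGFBP6, and probe sets of 1 gene are not independent. The LAD minus RCA difference of ZES pigs exceeded that of BMS pigs by 2.25 and 3.93 on the IGF1 probe sets Ssc.16231.1.S1_a_at and Ssc.16231.2.A1_a_at. On IGF2 it did so by 3.24 (Ssc.9365.6.A1_a_at), 3.78 (Ssc.9365.2.S1_a_at), 1.79 (Ssc.9365.7.A1_x_at), 4.43 (Ssc.9365.5.S1_a_at) and 5.30 (Ssc.9365.3.S1_a_at). For IGFBP6 Ssc.14062.2.S1_a_at the value was 1.29. In a fit with an artery by stent term and pig as a fixed block, chosen after seeing the data, limma called 0 of 17 members and 0 of all probe sets. Under 0.05 unadjusted were 7 of 17 members, all of IGF1 or IGF2, and 1376 of all 16799 probe sets. The smallest adjusted p of a member was 0.522. BMS 1, an RCA segment, and ZES 2, a LAD segment, are the 2 arrays of high 28S signal, and their part in this pattern was not tested.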

How the results depend on the processing

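The count of members called stayed at 0 in all 33 settings of each pairwise stent comparison, all 32 of the F test and all 14 of LAD minus RCA, with 1 array or 1 pig left out each time among them (0 to 0). The smallest adjusted p of a member over these settings was 0.0533 for SES minus BMS (IGF2 Ssc.9365.2.S1_a_at without the pig of ZES 1 and ZES 2), 0.243 for ZES minus BMS, 0.168 for ZES minus SES, 0.122 for the F test and 0.500 for LAD minus RCA. Over all probe sets, the calls for SES minus BMS ranged from 0 (without SES 3 and in other settings) to 673 (array weights), so the background against which members were read depends on the setting. Between 8 and 10 of the 10 IGF2 probe sets were lower with SES than with BMS in every setting that kept single probe sets. In 8 cases a value that exceeded its SE changed sign, and the cause was not tested: IGF2 Ssc.9365.2.S1_a_at, ZES minus SES (1.02; -0.043 to 1.83 with 1 array left out), at -0.043 without ZES 2 and -0.020 without both arrays of high 28S signal (chosen after seeing the data), and LAD minus RCA at -0.039 without the pig of ZES 1 and ZES 2 (-0.039 to 1.70 with 1 pig left out); IGFBP2, ZES minus SES, at -0.16 without the pig of SES 1 and SES 2 (-0.16 to 2.85 with 1 pig left out); IGFBP2, SES minus BMS, at 0.50 with spike-in level as covariate; and, with GAPDH difference as covariate, IGF2 Ssc.20525.1.S1_at, SES minus BMS, at 0.74, IGF1 Ssc.16231.3.S1_a_at, ZES minus SES, at 0.11, and IGFBP5, ZES minus SES, at -1.71. No paired analysis was possible because, for the stent types, each pig carried 1 type and the labels share no replicate numbers between groups; LAD and RCA were compared within pigs. Signals near background (IGFBP5, IGFBP2 on SES 2, the dimmer IGF2 probe sets) limit what their differences show.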
